A study of Mus musculus with 10 samples.

Results

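The circadian clock genes of pancreatic islets were followed across 10 RNA sequencing libraries, 5 of Grk5 knockout islets and 5 of control islets. The set was given by name: Arntl, Clock, Npas2, Per1, Per2, Per3, Cry1, Cry2, Dbp and Tef. All 10 were found by symbol among the 17945 named genes of the table. To enter the comparison of groups, a gene needed 5 libraries with a normalized count of 10 or more. This was met by 9 of the 10, and Arntl missed it. The knockout mice carried Pdx1-CreER with Grk5 flox/flox, and the control mice carried Grk5 flox/flox without the driver. All were 18-week-old C57BL/6 animals, and what the groups shared was therefore the floxed Grk5 allele. CreER is a recombinase that enters the nucleus when tamoxifen binds it. Here it is driven by the promoter of Pdx1, a transcription factor gene of β cells and of the pancreas in development. The labels do not state the number of animals behind each library, and they name no tamoxifen regimen.

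The molecular clock is a feedback loop that runs in nearly every cell. CLOCK or its relative NPAS2 pairs with BMAL1, the product of Arntl, and this pair binds E-box sequences and switches on the Per and Cry genes, whose proteins then shut the pair off. The same pair drives Dbp and Tef, whose products bind D-box sequences, and the nuclear receptor genes Nr1d1 and Nr1d2, whose products repress Arntl, Clock and Npas2. In nocturnal mice, transcripts of Arntl, Clock and Npas2 peak around dawn in peripheral tissues, and those of Dbp, Tef, the Per genes and Cry2 peak late in the day or at dusk. Cry1 peaks later in the night. In islets the loop is known for timing insulin secretion over the day. On this background, Arntl, Clock and Npas2 are called the morning genes below, and Per1, Per2, Per3, Cry2, Dbp and Tef the evening genes, with Cry1 in neither set. The labels give no hour of islet collection, so the hour and any other difference between libraries cannot be told apart.

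The binding sequences of the loop were looked for in RefSeq promoter windows on GRCm38.p6, each running from 250 bases before to 50 bases after an annotated start. Windows were found for 9 of the 10 genes, 14 windows in all, and the search covered both strands. The letters searched were CACGTG for the E-box, CACGTT for its variant the E-prime box, TTATGTAA or TTACGTAA for the D-box, TAGGTCA or TGGGTCA for the core bound by NR1D1 and ROR receptors (RRE), and TGACGTCA for the cAMP response element. Among all 32851 windows, 7.15% held the E-box, 4.69% the E-prime box, 1.06% the D-box, 6.45% the RRE core and 1.79% the cAMP response element. Of the 14 windows, 7 held at least 1 of these motifs, from 6 genes. Stretches before the start are shown for 3 genes because Per1 and the pair Per3 and Cry1 have the largest correlations, described further on, and a short stretch of Arntl shows the RRE core. They are written 5′ to 3′ on the strand of the gene, and capitals mark the motifs, none of which overlapped another.
Per1: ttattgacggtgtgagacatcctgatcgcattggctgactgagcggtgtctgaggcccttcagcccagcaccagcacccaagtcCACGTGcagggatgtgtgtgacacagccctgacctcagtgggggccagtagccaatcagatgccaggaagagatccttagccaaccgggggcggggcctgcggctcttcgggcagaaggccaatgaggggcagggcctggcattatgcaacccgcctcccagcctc
Per3: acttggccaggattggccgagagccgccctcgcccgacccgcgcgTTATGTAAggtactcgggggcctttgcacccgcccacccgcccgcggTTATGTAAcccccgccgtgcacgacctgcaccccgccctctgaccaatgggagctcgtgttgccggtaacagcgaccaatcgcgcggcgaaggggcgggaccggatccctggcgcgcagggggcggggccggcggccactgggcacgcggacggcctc
Cry1: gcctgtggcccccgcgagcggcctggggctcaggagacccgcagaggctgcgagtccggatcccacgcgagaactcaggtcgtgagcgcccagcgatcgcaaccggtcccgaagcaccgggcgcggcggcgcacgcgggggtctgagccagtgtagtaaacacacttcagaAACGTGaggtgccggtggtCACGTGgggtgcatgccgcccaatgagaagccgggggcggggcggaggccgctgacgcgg
Arntl: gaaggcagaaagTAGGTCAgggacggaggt

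The Per1 stretch comes from window 1 of 2 for this gene and lies at chr11:69098699-69098948 on the plus strand. Its E-box is at positions -166 to -161 counted from the RefSeq start of that window. This start lies inside the span of Per1 given further on. The Per3 stretch lies at chr4:151044666-151044915 on the minus strand and holds 2 D-boxes, at positions -205 to -198 and -158 to -151. The Cry1 stretch lies at chr10:85185055-85185304 on the minus strand. Its E-box spans positions -60 to -55, and its E-prime box, read on the other strand, spans -79 to -74. The Arntl stretch comes from window 2 of 2 for this gene and lies at chr7:113207529-113207558 on the plus strand. Its RRE core is at positions 30 to 36 counted from the start of that window. A window of Cry2 held an E-prime box, and both windows of Tef held an E-box. None of these motifs was met in the windows of Clock, Npas2 and Dbp. The exact letters of the cAMP response element were met in no window of the set, those of Per1 included. Inexact or shorter forms were not searched for, and window 2 of Per1 holds tgacgtcg, which differs in the last letter. Per2 was the gene without a window. A match is a description of the letters and says nothing of binding.

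The libraries differed in depth. The commonest low value of a library, taken as the worth of 1 read, ran from 0.527 in knockout 3 to 3.55 in knockout 1, so knockout 1 was the shallowest library by this estimate. Controls 2, 3 and 5 stood apart from the rest: of their values under 20 such steps, 19.4% to 23.3% lay midway between whole steps (a remainder of 0.4 to 0.6), against 7.22% to 12.2% in the other 7 libraries. The fold changes without them are given with the other alternative settings at the end. Of 4562 genes with a mean above 200, between 5 and 67 were listed at 0 in a library, with 67 in knockout 1. A listed 0 is reported as such and not as absence. Of the islet hormone transcripts, Ins1 and Ins2 took 12.3% to 17.8% of each library. Of 25 acinar markers, 24 were in the table, and they summed to between 36246 and 97415 normalized counts in knockouts and between 24197 and 309632 in controls. Grk5, the targeted gene, had 269.8, 129.9, 94.4, 207 and 106 normalized counts in knockouts 1 to 5, against 197, 165, 387, 332 and 128 in controls 1 to 5. The groups overlapped. Esr1, whose product supplies the hormone-binding part of CreER, was between 1517 and 3177 in knockouts. It was 2495 in control 2 and 773 in control 5, against at most 10.5 in the other 3 controls. The series describes the controls as having no CreER, so the libraries labelled control 2 and control 5 go against their label in this gene, and its part in the results was not tested beyond leaving them out.

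The first question was how strongly islets carry each clock gene. Per kb of annotated exon, Cry2, Per1 and Per2 stood at the top, with medians over the 10 libraries of 213, 193 and 166 normalized counts per kb. They could not be ranked among themselves, since Cry2 lay above Per1 in 5 of 10 libraries and Per1 above Per2 in 5 of 10. Per2 lay above the next gene, Cry1, in 10 of 10 libraries. Cry1 had a median of 54.0 per kb, Tef 36.0, Dbp 30.8, Clock 18.9, Per3 18.5 and Npas2 16.1. Neighbours in this lower order exchanged places between libraries, with the higher gene above the next in 5 to 7 of 10. Arntl came last, at a median of 0 and a highest value of 19.3 per kb. Exon lengths are from GENCODE M21 on GRCm38, joined over all annotated transcripts of a gene whether or not islets use them. The order between genes is therefore approximate, and no source used here names the authors' own annotation.

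The morning genes came first in the comparison of knockout with control islets. Arntl (chromosome 7, 113207465 to 113314126) encodes BMAL1, without which the loop stops. It was listed at 0 in all 5 knockouts, against 145, 0, 74.0, 0 and 50.3 normalized counts in controls 1 to 5. Controls 1, 3 and 5 thus held all of its signal, and of these 3 and 5 are among the libraries that stood apart. Controls 2 and 4 were listed like the knockouts. With 7 of 10 libraries at 0, no fold is given, and the gene was not among those tested. In the authors' deposited table its p was 0.000352 and its adjusted p 0.104. With no filter on low values, its p by limma was 0.0162 before adjustment and 0.899 after it. Among all 17945 named genes, 0.602% were above 0 in 3 or more controls and listed at 0 in every knockout, and 0.518% showed the opposite, so Arntl shared its pattern with 107 other genes.

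Clock (chromosome 5, 76209868 to 76304792) encodes the partner of BMAL1. Its normalized counts were 195, 225, 496, 0 and 394 in knockouts 1 to 5, against 151, 294, 638, 125 and 561 in controls 1 to 5. Knockouts 3 and 5 and controls 3 and 5 were the highest, and the groups overlapped. limma gave an adjusted p of 0.964 for a log2 fold change of -0.99 ± 1.07 (SE), which rested on the listed 0 of knockout 4 and was 0.070 without that library. Npas2 (chromosome 1, 39193731 to 39363236), which can stand in for Clock, had 21.4, 127, 24.3, 97.7 and 17.1 in knockouts, against 133, 92.9, 33.5, 176 and 60.9 in controls. Knockouts 1, 3 and 5 lay below every control, while knockouts 2 and 4 lay within the control range. The means were 57.6 ± 51.3 and 99.2 ± 56.6 (SD, n = 5 each), with a difference on the log2 scale of -0.89 ± 0.66 (SE), 95% limits of -2.28 to 0.50 and an adjusted p of 0.949 by limma.

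**Figure D1:**
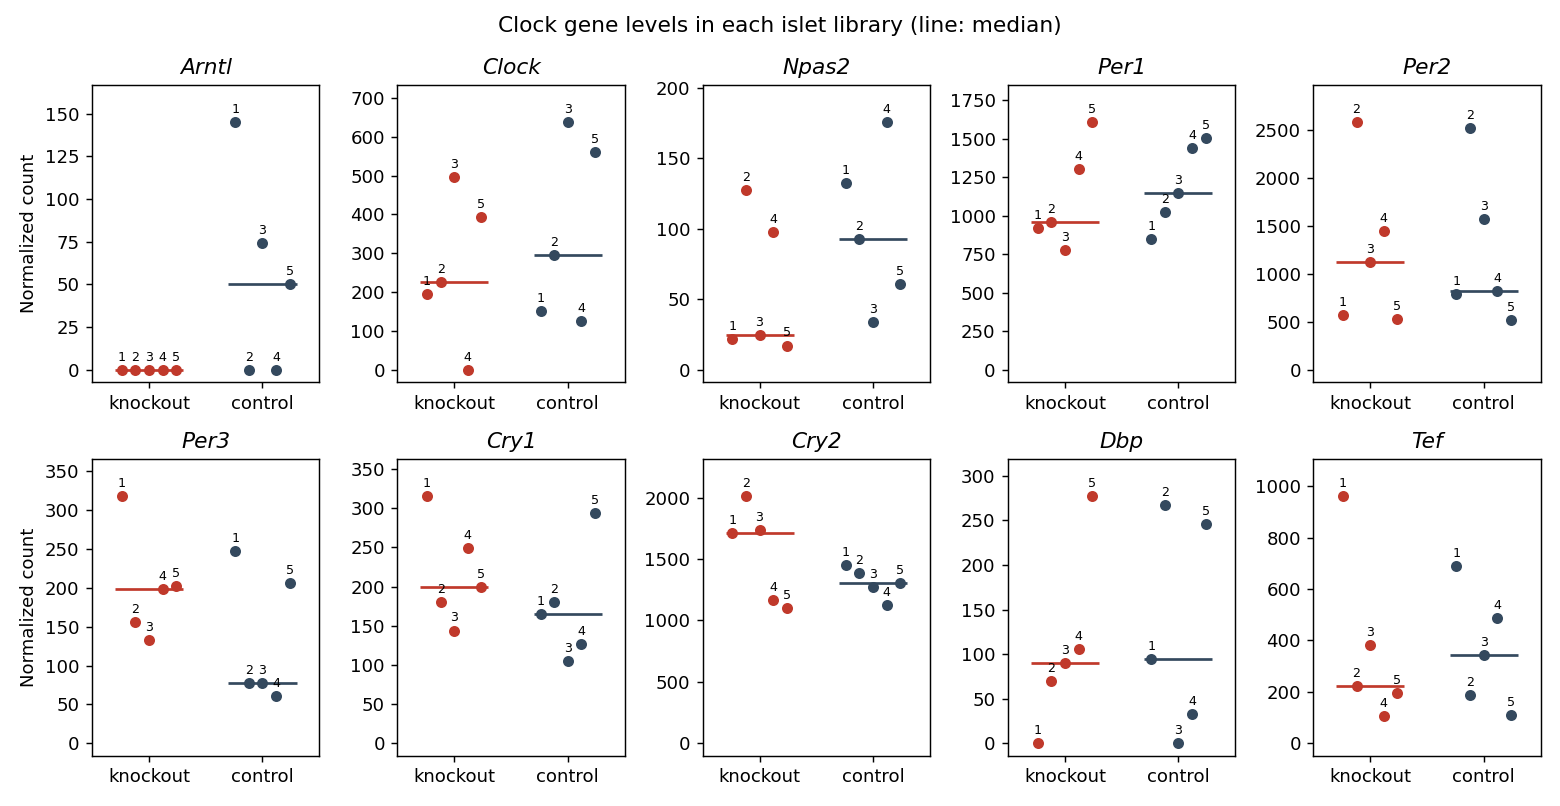
Normalized counts of the 10 clock genes in 5 knockout and 5 control islet libraries, 1 panel per gene with its own linear axis. Points are libraries, numbered by replicate, and lines are medians. Arntl lies at 0 in every knockout and in controls 2 and 4, and in every other panel the groups overlap.

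The Period genes encode the repressors that feed back on the loop, and Per1 and Per2 are also induced directly by cAMP and glucocorticoid signals. Per1 (chromosome 11, 69095217 to 69109960) had 921, 959.9, 775, 1305 and 1608 normalized counts in knockouts 1 to 5, against 849, 1023, 1149.75, 1437 and 1501 in controls 1 to 5. Its means were 1114 ± 337 and 1192 ± 276 (SD, n = 5 each). The log2 fold change was -0.12 ± 0.23 (SE), with 95% limits of -0.61 to 0.37 and an adjusted p of 0.978 by limma, and it was close to 0 without knockout 3 (0.0015).

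Per2 (chromosome 1, 91415982 to 91459324) had 567, 2584, 1120.0, 1451 and 532 in knockouts, against 787, 2520.3, 1575, 819 and 520.3 in controls. Each group held a library with very high Per2, knockout 2 and control 2, and libraries near 500, so the spread lay within the groups. The highest library stood 4.97-fold above the lowest. The means were 1251 ± 839.8 and 1244 ± 814 (SD, n = 5 each). By limma the log2 fold change was -0.01 ± 0.51 (SE) at an adjusted p of 0.9997, of a sign that turns under total-count scaling.

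Per3 (chromosome 4, 151003652 to 151044665), the least essential of the family in mice, had 318, 156, 132, 199 and 202 in knockouts, against 247, 77.8, 77.3, 60.3 and 206 in controls. The controls fell apart, with controls 1 and 5 among the knockouts and controls 2, 3 and 4 below all of them. The means were 201 ± 71.7 and 134 ± 86.3 (SD, n = 5 each), with a difference on the log2 scale of 0.71 ± 0.46 (SE), 95% limits of -0.26 to 1.68 and an adjusted p of 0.942 by limma. This was the largest positive estimate of the 9 genes tested, and it did not pass.

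The cryptochromes are the other arm of the repressor complex. Cry1 (chromosome 10, 85131700 to 85185064) had 316, 180.2, 144, 249 and 199 normalized counts in knockouts, against 165, 180.4, 106, 127 and 294 in controls. By limma the log2 fold change was 0.34 ± 0.39 (SE) at an adjusted p of 0.965, and control 5 lay above 4 of 5 knockouts. Cry2 (chromosome 2, 92403646 to 92434043) had 1713, 2015, 1736, 1167 and 1101 in knockouts, against 1449, 1382, 1275, 1125 and 1306 in controls. Knockouts 1, 2 and 3 lay above every control, and knockout 5 lay below every control. The means were 1546 ± 395 and 1307 ± 123 (SD, n = 5 each). The log2 fold change was 0.21 ± 0.20 (SE) with 95% limits of -0.21 to 0.62 and an adjusted p of 0.963 by limma, the narrowest interval of the set. An annotated antisense gene shares 295 exon bases with Cry2. The counting's strand setting is not stated in the sources, so reads of such overlapping genes may not be told apart.

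Dbp and Tef encode related bZIP factors that carry the clock to its output genes. Dbp (chromosome 7, 45705088 to 45710203) is among the transcripts with the widest daily swing in mouse tissues. Here it had 0, 69.9, 89.6, 106 and 278 in knockouts 1 to 5, against 94.9, 267, 0, 33.1 and 246 in controls 1 to 5. Each group ran from a listed 0 to well above 200 normalized counts. By limma the log2 fold change was -0.05 ± 1.03 (SE) at an adjusted p of 0.999, with 95% limits of -2.24 to 2.13 and a sign that turns under total-count and upper-quartile scaling. Sphk2, on the opposite strand, shares 539 exon bases with Dbp. Tef (chromosome 15, 81802421 to 81826863) had 963, 224, 381, 108 and 196 in knockouts, against 691, 187, 343, 488 and 109 in controls. Knockout 1 and control 1 were the highest of their groups, and the range was 8.95-fold. By limma the log2 fold change was -0.08 ± 0.56 (SE) at an adjusted p of 0.996, and 0.057 with the acinar markers as a covariate.

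None of the 9 genes tested passed an adjusted p of 0.05 by limma, where 0.00% of the 11711 genes tested passed. At an unadjusted p under 0.05 the count was also 0 of 9, where 5.01% of all genes tested passed. Arntl, outside these 9, was below 0.05 before adjustment when the filter was dropped. For none of the 9 did the groups stop overlapping, which happened for 0.862% of all genes tested. Estimates were positive for 3 genes and negative for 6, with a median of -0.05, against a median of -0.03 over all genes tested. In the authors' deposited table the adjusted p-values of these 9 genes were all 0.981 or above. The 95% limits stayed within 1 log2 unit of 0 for Per1 and Cry2, and reached beyond it for the other 7 genes, so a change of that size lay within the limits there. A count of 0 in this design does not show that the genes did not change. These are whole-islet values, in which fewer cells of a type and less RNA per cell cannot be told apart.

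**Figure D2:**
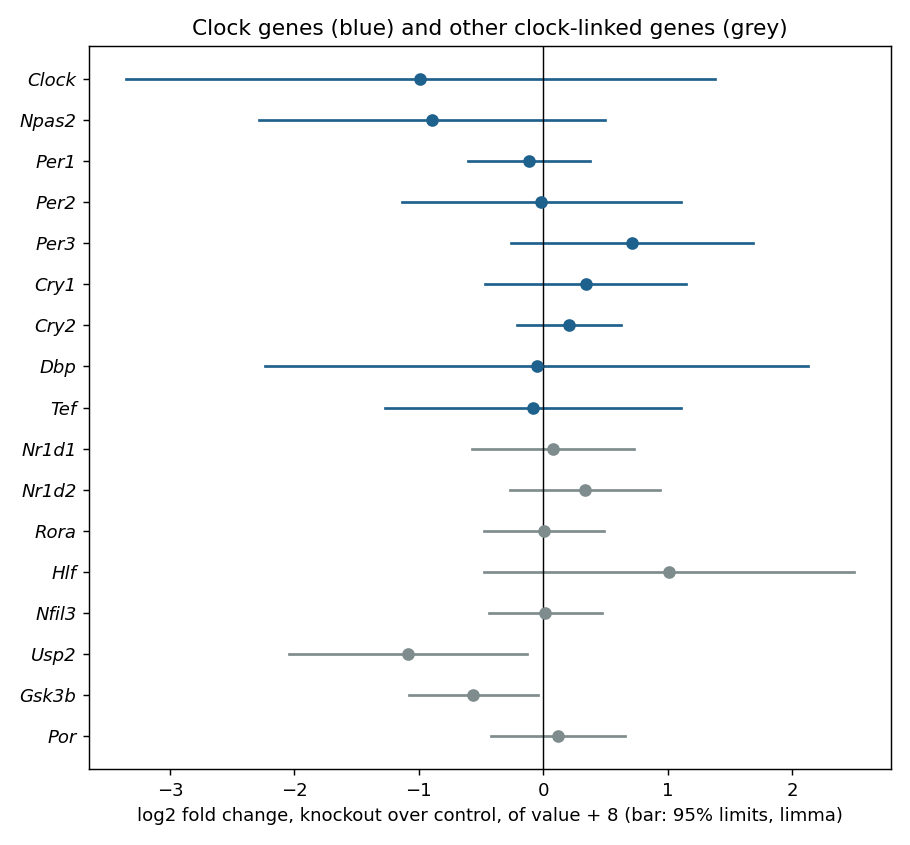
Log2 fold change, knockout over control, of 9 clock genes (blue) and 8 other clock-linked genes (grey), on the log2(value + 8) scale. Bars are 95% limits from limma over 5 knockout and 5 control libraries, and the bars of Usp2 and Gsk3b alone do not cross 0.

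The list was widened to other genes of the clock. Of 30 clock-linked genes, all were in the table, 1 of them (Noct) under its older symbol Ccrn4l, and 28 were tested. Estimates were positive for 15 and negative for 13, with a median of 0.0074, and 0 passed the adjusted threshold by limma. At an unadjusted p under 0.05, 2 were lower in knockouts and 0 higher, where 2.66% and 2.36% of all genes tested were. These were Usp2, a deubiquitinase gene driven by the clock (114 ± 51.8 in knockouts and 257 ± 149 in controls, adjusted p = 0.942 by limma), and Gsk3b, a kinase gene whose product acts on clock proteins (623 ± 197 and 890.2 ± 100.3, adjusted p = 0.942 by limma; SD, n = 5 each). Nr1d1, the repressor of Arntl, was 1078 ± 607 in knockouts and 939 ± 271 in controls, and its relative Nr1d2 differed by 0.34 ± 0.29 on the log2 scale (SE; adjusted p of 0.955 by limma). Hlf, the third PAR bZIP factor beside Dbp and Tef, was 79.5 ± 58.2 and 43.7 ± 43.2. Rora, the activator that competes with Nr1d1, and Nfil3, a repressor at D-boxes, had log2 fold changes of 0.0069 ± 0.23 and 0.02 ± 0.22.

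The clock genes differed widely in how much they varied between libraries of 1 group. The spread within groups was taken as the SD of log2 values, and each gene was set beside tested genes of similar mean. The SD of Per2 was 0.92, and 96.7% of 365 genes of like level had a smaller one. Tef stood at 1.10, with 92.9% below it. Dbp and Clock, each with listed zeros, stood at 2.02 and 1.87, with 96.4% and 97.7% below. Per1, by contrast, had an SD of 0.38 with 53.8% below, Cry2 one of 0.29 with 35.7% below, and Cry1 one of 0.48 with 16.5% below. Npas2 and Per3 stood at 42.8% and 42.0%. Among the other clock genes Nr1d1 had 83.7% below it, and Nfil3, with values from 552 to 729 in all 10 libraries, had 0.511%.

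The next question was whether morning and evening genes moved against each other across preparations, as they do over a day. Each gene was centred on its own mean over all 10 libraries, on the log2 scale. For each library, the mean of the 6 evening genes minus that of the 3 morning genes was then taken. This difference was 0.56, 0.21, 0.38, 1.73 and 0.70 in knockouts 1 to 5, against -0.9998, 0.25, -1.62, -0.17 and -1.05 in controls 1 to 5. Its means were 0.72 ± 0.60 and -0.72 ± 0.75 (SD, n = 5 each), and control 2 lay above knockout 2. Centring over all 10 libraries makes the group means mirror each other, so only the difference between groups carries information. The evening genes held little of this, at 0.05 ± 0.17 in knockouts and -0.05 ± 0.36 in controls, while the morning genes were at -0.66 ± 0.66 and 0.66 ± 0.66. No test was made, since the genes were chosen as a set with earlier results known.

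The size of the difference moved with genes listed at 0. Without Arntl, the knockout minus control difference of 1.43 became 1.05, and without Arntl and knockout 4, where Clock was listed at 0, it was 0.66. With the genes above 0 in every library, which leaves Npas2 against Per1, Per2, Per3, Cry2 and Tef, the values were 1.61, -0.71, 1.12, -0.72 and 1.28 in knockouts, against -0.79, -0.62, 0.71, -1.56 and -0.31 in controls. Knockouts 2 and 4 then lay among the controls, and control 3 lay among the knockouts. These last settings were chosen after the values were seen.

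**Figure D3:**
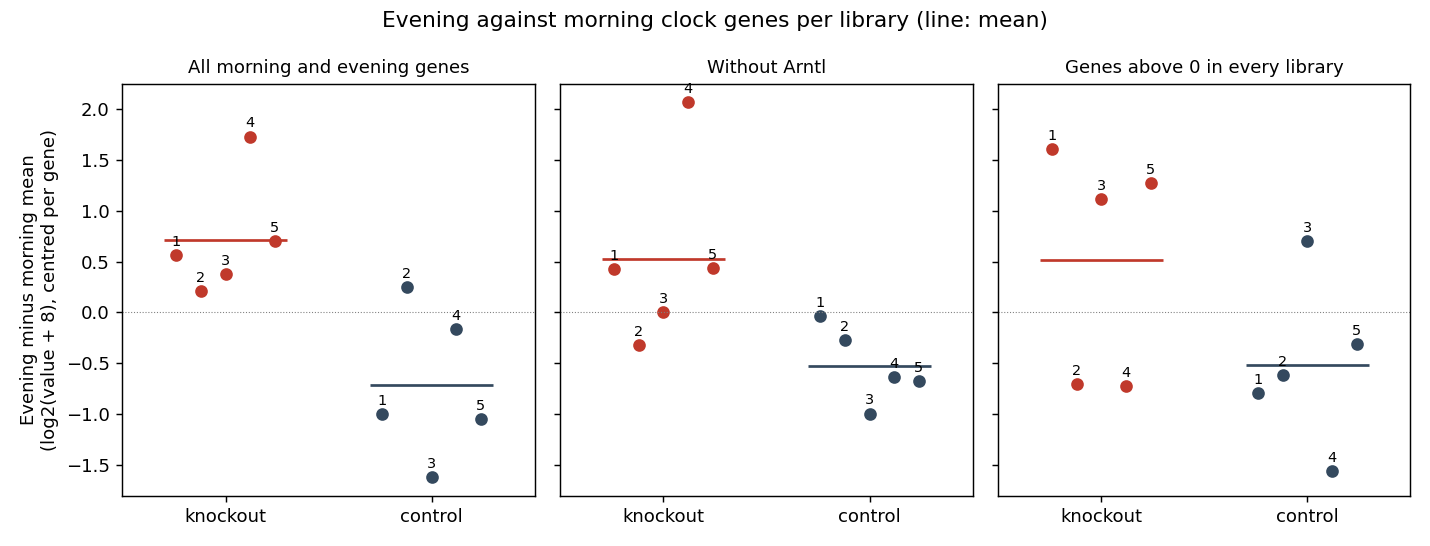
Evening minus morning mean per library, on the log2(value + 8) scale, for all genes, without Arntl, and for genes above 0 in every library. Each gene was centred on its mean over all 10 libraries. Points are libraries, numbered by replicate, and lines are group means. Control 2 lies above knockout 2 on the left, and in the right panel knockouts 2 and 4 fall among the controls.

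Pairs of genes were then compared across all 10 libraries, 45 pairs in all. For Arntl and Dbp, the morning and evening genes with the clearest opposite phases, Pearson's r was -0.121 (permutation p = 0.769, adjusted p = 0.923) and Spearman's rho was -0.105 (permutation p = 0.777, adjusted p = 0.954). Without controls 1 and 3, the libraries farthest from the median of Arntl, r was 0.336. The sign of r thus rests on few libraries. The value of 0.336 itself rests on control 5, where alone Arntl was then above 0. Of the 18 pairs of a morning with an evening gene, 11 were negative and 7 positive, with a median r of -0.059 and a range of -0.311 to 0.395. The 15 pairs of evening genes with each other had 8 negative and 7 positive values, with a median of -0.144. The 3 pairs of morning genes had r of 0.272 for Arntl with Clock, 0.113 for Arntl with Npas2 and -0.441 for Clock with Npas2. No pair passed when adjusted over the 45, by r or by rho. By r, 3 of the 45 (6.67%) had an unadjusted p under 0.05, a share close to that threshold, so these 3 are given as a description.

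**Figure D4:**
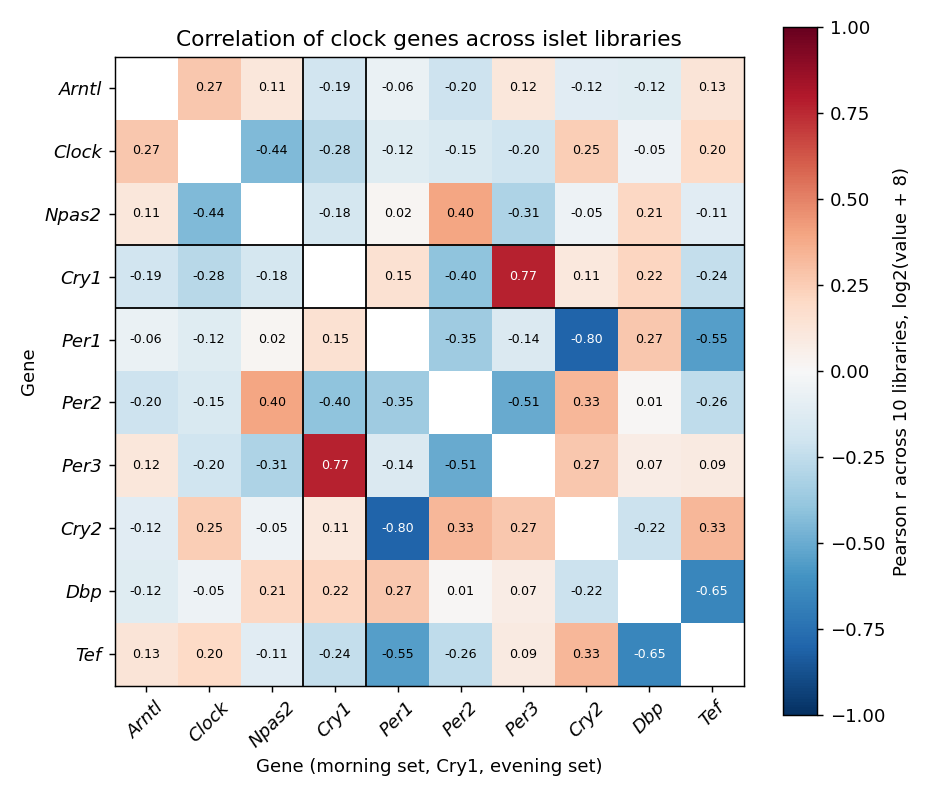
Pearson's r between clock genes across the 10 libraries, on log2(value + 8). Black lines part the morning genes, Cry1 and the evening genes. The block of morning against evening genes is pale, from -0.31 to 0.40, and the deepest colours are Per1 with Cry2 (-0.80) and Per3 with Cry1 (0.77).

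The largest r of these 3 in size was that of Per1 and Cry2, both evening genes. It was -0.803 (permutation p = 0.00587, adjusted p = 0.212) and rho was -0.842 (permutation p = 0.00344, adjusted p = 0.155). The value was -0.713 without knockouts 3 and 5, -0.809 with each group centred on its mean, and -0.840 in the 7 libraries without controls 2, 3 and 5. It was -0.521 under total-count scaling and -0.423 under upper-quartile scaling, so its size moved with the scale between libraries. For Per3 and Cry1 r was 0.768 (permutation p = 0.00941, adjusted p = 0.212) and rho was 0.745 (permutation p = 0.0168, adjusted p = 0.377). Without controls 3 and 4 r was 0.571, with groups centred 0.725, and in the same 7 libraries 0.799. Knockout 1 was the highest library for both genes, and controls 3 and 4 were the lowest for Cry1. The stretches printed above hold different motifs, D-boxes for Per3 and an E-box and an E-prime box for Cry1. A link between these motifs and the correlation was not tested.

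For Dbp and Tef, the D-box factors, r was -0.654 (permutation p = 0.0409, adjusted p = 0.613) and rho was -0.675 (permutation p = 0.0367, adjusted p = 0.550). The r was -0.588 without knockout 1 and control 3, the 2 libraries where Dbp was listed at 0, -0.656 with groups centred and -0.689 in the 7 libraries. Among the 11710 other genes tested, Tef ranked 11502 from the top in likeness to Dbp.

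**Figure D5:**
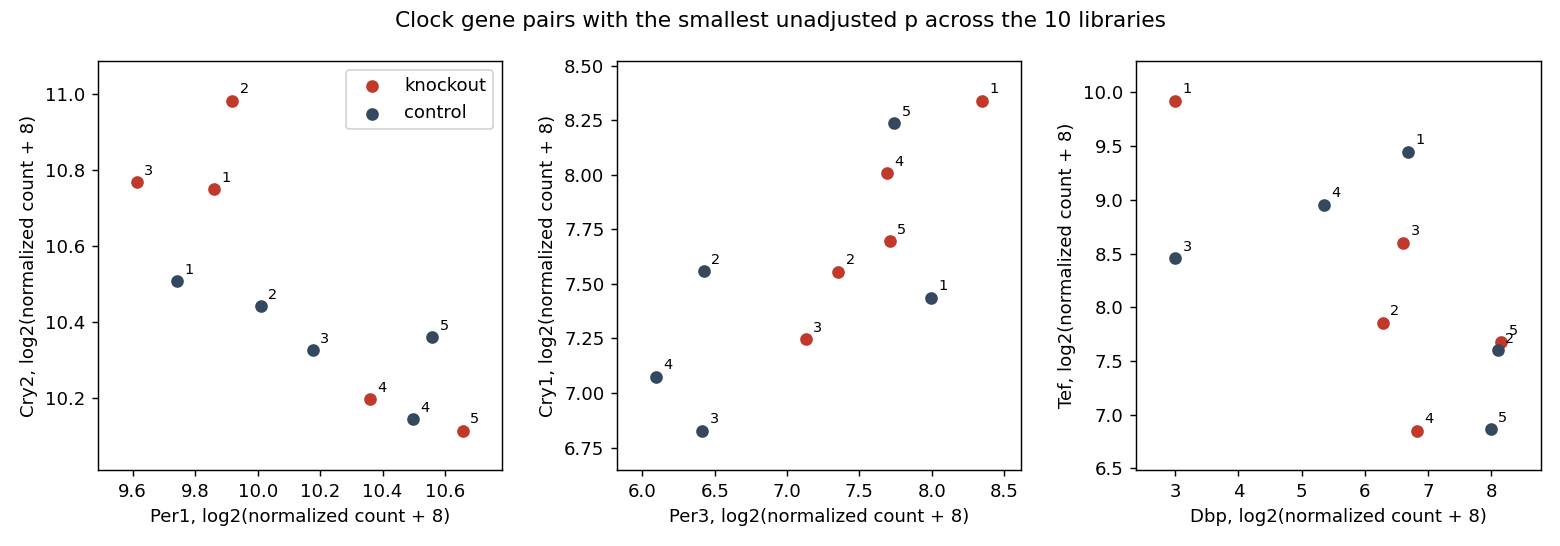
The 3 gene pairs with an unadjusted p under 0.05 across the 10 libraries, each axis in log2(normalized count + 8). Red points are knockouts and dark points are controls, numbered by replicate. Per1 and Cry2 run downward (r = -0.803), Per3 and Cry1 upward (0.768), and Dbp and Tef downward (-0.654) with knockout 1 and control 3 at the floor of Dbp.

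Likeness to Dbp over the 10 libraries was highest for Rarg (r = 0.938), Kctd6 (0.907), Usp15 (0.901), Habp4 (0.887) and Clptm1 (0.881), and lowest for Ago1 (-0.904), Spg21 (-0.878), Sdc3 (-0.873), Lcp1 (-0.868) and Nudt11 (-0.865). These values are extremes of many, since 95% of all genes tested lay between -0.623 and 0.684. Of the 28 clock-linked genes tested, 15 went with Dbp and 13 against it, with a median r of 0.021. Por, which encodes the electron donor of cytochromes P450, was the nearest of them at 0.740, ranking 138 of 11710. Dbp was listed at 0 in knockout 1 and control 3, so the values for Dbp lean on those libraries. Por was also lowest in knockout 1 (412 normalized counts), the shallowest library. Its r was not taken without them. For Arntl the highest were Stom (0.906), Nup153 (0.894), Sec11a (0.873), Nsfl1c (0.870) and Rab20 (0.862), and the lowest Zc3h13 (-0.949), St8sia3 (-0.913), Emc7 (-0.897), Os9 (-0.878) and Bcs1l (-0.877). For Arntl, 95% of all genes tested lay between -0.638 and 0.607. The extremes named for Arntl rest on the 3 libraries in which it was above 0.

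Per1 was set beside immediate early genes, which share its response to cAMP and calcium. Of 10 such genes, 9 had a positive r with Per1, with a median of 0.455 and the highest values for Egr1 (0.593), Arc (0.590) and Nr4a1 (0.570), and 1, Crem, was negative (-0.175). All of these lay inside the range that held 95% of all genes tested with Per1, -0.627 to 0.623. A positive r was not particular to Per1. With Arntl, 9 of the 10 were positive at a median of 0.484. Fos (0.620) and Junb (0.613) lay above the range that held 95% of all genes tested with Arntl, -0.638 to 0.607, and the rest lay inside it. These values rest on the 3 controls in which Arntl was above 0, whereas Per1 was above 0 in all 10 libraries. With Per2, which cAMP also induces, 2 were positive and 8 negative at a median of -0.178. In the comparison of groups 9 of the 10 had a negative and 1 a positive estimate, with a median log2 fold change of -0.63, and 7 had an unadjusted p under 0.05 in the lower direction and 0 in the higher, where 2.66% and 2.36% of all genes tested did. None passed the adjusted threshold, and Per1 itself was at -0.12. Of 6 glucocorticoid targets 5 were tested, and their median r with Per1 was -0.066. The values ran from -0.369 for Tsc22d3 to 0.354 for Dusp1, with Fkbp5 at 0.281. Dusp1 is also among the 10 immediate early genes.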

How the data were processed

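Islet RNA was depleted of ribosomal RNA and sequenced from random-primed stranded libraries, per the labels' protocols. DESeq2, HTSeq and STAR (version 2.4.0.1) appear in the submitters' processing notes, with no role stated. No genome build is given in the sources used here. The authors deposited normalized counts per gene (a signal unit, not whole reads), with their own log2 fold changes, standard errors, test scores and p-values. Their values carry the authors' name wherever they are printed. The table has 17946 rows, and the single row lacking a name (0.00774% to 0.0251% of library totals) was dropped.

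Values were taken as log2(value + 8) for 11711 genes with at least 10 in at least 5 libraries and compared with limma 3.58.1 in R 4.3.3 (mean-variance trend, robust, Benjamini-Hochberg at 0.05). Fold changes on this scale understate those of low genes. The limma steps alone were tested on simulated data, and the outcome is not given here. Pair correlations used 100000 permutations, or exact enumeration below 10 libraries, in Python 3.11.15 with scipy 1.17.1. Labels do not say whether libraries came from separate animals, so a p-value here speaks of spread among libraries, which may be technical. Replicate numbers follow accession order and pair nothing. The members and lists were chosen with earlier results of these data known. The genes named are the members, Grk5, Esr1, up to 8 clock-linked genes, the 5 most and least like Arntl and Dbp, and examples of 2 further lists. Gsk3b, Por and the 3 pairs shown were chosen after their values were seen. Noct was found under its older symbol.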

Additional observations from a re-analysis of the deposited data

How the results depend on the processing

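Members called stayed at 0 under all 21 alternatives. Genes called over the whole table were 0, and 1 without control 1 (Ppp4r1l-ps), 1 without controls 2 and 5 (Esr1), 3 without controls 2, 3 and 5 (Esr1, Herc4 and Amy2a1), and 0 to 1 with single libraries left out. Leaving out controls 2 and 5 was chosen from Esr1 itself. Cry1, Cry2, Npas2 and Per3 kept their direction in all 21, but not their size. With single libraries left out, Cry1 (0.34) ran from 0.19 without control 3 to 0.54 without control 5, Cry2 (0.21) from 0.10 without knockout 2 to 0.32 without knockout 5, Npas2 (-0.89) from -1.24 without knockout 2 to -0.64 without knockout 5, and Per3 (0.71) from 0.50 without control 4 to 0.98 without control 1. Without controls 2, 3 and 5, Npas2 was -1.66, Tef -1.02, Cry1 0.51, Per3 0.60, Cry2 0.24 and Per1 -0.04. Without controls 2 and 5, Tef was -0.77, Cry1 0.66, Npas2 -1.01, Per3 0.81, Cry2 0.24 and Per1 -0.06. The log2 fold change of Per2 turned to 0.0073 with total counts, 0.057 with array quality weights, 0.062 without controls 2 and 5 and 0.38 without controls 2, 3 and 5. That of Dbp turned to 0.020 with total counts, 0.0040 with upper quartiles, 0.86 with quality weights, 1.16 without controls 2 and 5 and 0.15 without controls 2, 3 and 5. Tef turned to 0.057 with the acinar covariate, and Clock to 0.048 without controls 2, 3 and 5. With single libraries left out, Per2 ran from -0.34 to 0.30, Dbp from -0.86 to 0.74, Tef from -0.52 to 0.25, Clock from -1.42 to 0.070 and Per1 from -0.26 to 0.0015. The sign turned for Per2 without knockout 1 or 5 or control 2 or 3, for Dbp without knockout 1 or control 1, 2 or 5, for Tef without knockout 4 or 5 or control 1 or 4, for Clock without knockout 4 and for Per1 without knockout 3. The cause of these turns was not tested.

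The evening minus morning difference (1.43) was 2.26 with a pseudocount of 1, which widens the distance of listed zeros, and 0.87 with a pseudocount of 32. With Cry1 in the morning set it was 1.02, and with the median of the genes of a set 1.72. Without Arntl and knockout 4 it was 0.66. It ran from 1.18 to 1.68 with single libraries left out. Arntl against Dbp (r = -0.121) turned to 0.151 without controls 2, 3 and 5 and to 0.336 without the 2 libraries farthest from the median of Arntl. Arntl was then above 0 in control 1 alone and in control 5 alone, respectively. With single libraries left out, r ran from -0.314 to 0.221. The 3 pairs of smallest p kept their sign under all 17 alternatives, and 0 of 45 pairs passed under any. Arntl, Clock and Dbp are the genes listed at 0 in some libraries. No paired analysis was possible because the labels give no replicate numbers shared between groups.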
